A study of Drosophila melanogaster with 9 samples.

Results

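Larp is the Drosophila La-related protein, which binds messenger RNA. The 100 transcripts described here had a low share of the RNA recovered with Larp from ovaries, relative to the lysate, in every replicate. They were chosen on measured values. A gene entered when its mean CPM (counts scaled to a common library total) in input was at least 20. It also needed a log2 ratio of anti-FLAG IP over input, with 0.5 CPM added to both and centred on the median gene, at or below -0.6 in all 3 replicate numbers. Of 17024 features, 5562 reached the input minimum and 103 of these met the ratio threshold. Names that the rule leaves out, among them mitochondrial, yolk, eggshell and heat shock names, removed 3 and left 100. All libraries came from larp::GFP::FLAG ovaries, in which Larp carries a GFP and a FLAG tag, dissected 1 to 3 days after the adult females emerged. Every fraction therefore carried the same allele, and no library from untagged ovaries was analysed. There were 3 anti-FLAG IP libraries, recovered with an antibody to the tag, 3 IgG control libraries, recovered with mouse IgG, and 3 input libraries from 10% of the lysate. The labels do not say whether replicates came from separate pools of flies, so the spread between them may be technical in part.

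In mammals, LARP1 binds messages that begin with a terminal oligopyrimidine motif, which include those for ribosomal proteins and translation factors, and it acts under the kinase complex TORC1. In an RNA immunoprecipitation, transcripts held by the protein gain share of the recovered RNA, and because shares add to a fixed total every other transcript loses share. A low centred ratio is therefore a statement relative to the median gene. In RNA of whole ovaries, fewer cells of a type and less RNA per cell cannot be told apart.

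The libraries held 11316201 to 17571309 counts. Ribosomal protein genes took 29.5% to 49.6% of the counts in anti-FLAG IP, against 7.22% to 8.81% in IgG control and 8.32% to 10.6% in input. The median gene before centring stood at -0.98, -1.21 and -0.55 (log2, anti-FLAG IP over input) in replicate numbers 1, 2 and 3, and each ratio below is relative to that median. The features without a symbol included 1 with a short identifier that held 0.160% to 0.323% of the anti-FLAG IP counts, 0.549% to 7.89% of the IgG control counts and 0.00650% to 0.0382% of the input counts. The mRNA of larp itself had 289.7, 309 and 731 normalised counts in anti-FLAG IP, 125, 155 and 434 with control IgG and 121, 161 and 365 in input in numbers 1 to 3, where a normalised count is a CPM value after TMM scaling of all 9 libraries. The number 3 libraries were thus the highest for larp in each fraction. Germline markers, of which 6 of 8 had a symbol match, summed to 1051 to 1708 CPM in anti-FLAG IP, 2139 to 2928 in IgG control and 2509 to 2645 in input. The marker sums here are not centred, and the median gene also lost share in anti-FLAG IP. A separate list of 16 measured germline genes had a median centred anti-FLAG IP over input ratio of -0.01, with 8 below 0. None of the listed markers of germline, follicle, muscle sheath, hemocyte, fat body or gut cells was among the 100 transcripts. Only 6 germline, 2 follicle, 5 muscle sheath, 1 hemocyte or fat body and 0 gut markers reached the input minimum. The others could not enter, and so few eligible genes say little about these cell types. Gut markers were at 0 in all input libraries, and the fat body genes Fbp1 and Lsp1alpha and the hemocyte gene NimC1 were also at 0 there. Hemocyte and fat body markers summed to 18.1 to 117 CPM in anti-FLAG IP and 58.7 to 786 in IgG control, against 21.2 to 49.5 in input. Muscle sheath markers summed to 93.1 to 335 CPM in anti-FLAG IP, 354 to 906 in IgG control and 222 to 446 in input. For follicle cell markers the sums were 92.2 to 180, 121 to 232 and 108 to 242 CPM in these fractions. A separate list of 8 measured muscle sheath genes had a median centred IgG control over input ratio of 1.14, with 0 below 0. The part of these cell types in the results was not tested.

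Together the 100 transcripts made up 0.359%, 0.231% and 0.467% of the anti-FLAG IP counts in numbers 1 to 3. They held 0.899%, 0.873% and 0.923% of the IgG control counts, and 1.36%, 1.19% and 1.29% of the input counts. These shares are not centred, and the median gene also lost share in anti-FLAG IP, at -0.78, -1.14 and -0.59 (log2) relative to IgG control. That anti-FLAG IP lay below input is fixed by the rule. After TMM scaling, the mean over the 3 libraries of a fraction was lowest in anti-FLAG IP, next in IgG control and highest in input for 85 of the 100 transcripts, against 20.7% of all 5562 genes. The anti-FLAG IP part of this order rests on libraries that the rule used. The mean of anti-FLAG IP was at or above that of IgG control for 8 transcripts, against 51.1% of all genes, and the mean of IgG control was at or above that of input for 7, against 46.1%.

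The mean anti-FLAG IP over input ratio had a median of -1.05 over the 100 transcripts and ran between -1.89 for CG5151 and -0.69 for CG6051. These values chose the set and are given as a description. The 3 replicate numbers did not weigh alike, with medians of -0.95, -1.14 and -0.89 in numbers 1, 2 and 3. Number 2 held the lowest of a transcript's 3 ratios for 59 transcripts, number 1 for 27 and number 3 for 14. Over all 5562 genes, number 2 held it for 1956, number 1 for 1608 and number 3 for 1998. A mean ratio at or below -1, which is a share of at most 0.5 of that expected from the median gene, was found for 59 transcripts. All 3 ratios were that low for 14. The lowest single ratio was -2.74, for CG5151 in number 2. The transcripts nearest the threshold on the inside were Csl4, CG30344 and CG6051, whose highest ratios were -0.603, -0.604 and -0.608. The nearest on the outside were CG9485, PMP34 and AP-1mu, with highest ratios of -0.5998, -0.5995 and -0.593, so the border has no gap.

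edgeR's quasi-likelihood test, with Benjamini-Hochberg adjustment over all genes tested, called 25 of the 100 transcripts lower in anti-FLAG IP than in input at adjusted p below 0.05. The share of all 7575 genes called lower was 0.383%, and this contrast is the one the rule used. Shares of genes called are over all genes tested, which include genes under the input minimum that could not enter. Among the 5562 genes that reached it, 29 were called lower. A fit that blocked on replicate number called 76, among 2.11% of all genes tested and 157 of the 5562. In fits without that block, the count was 0 without replicate 1, 0 without replicate 2 and 40 without replicate 3. There 0%, 0% and 1.76% of all genes were called lower. At an unadjusted p below 0.05, 79, 83 and 93 of the transcripts were lower in these fits. The share of all genes at that p was not taken for them. Since this contrast chose the set, nothing is read from these counts. In normalised counts, all 3 anti-FLAG IP libraries lay below all 3 input libraries for 94 transcripts, where 13% of the 5562 genes did so.

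**Figure D1:**
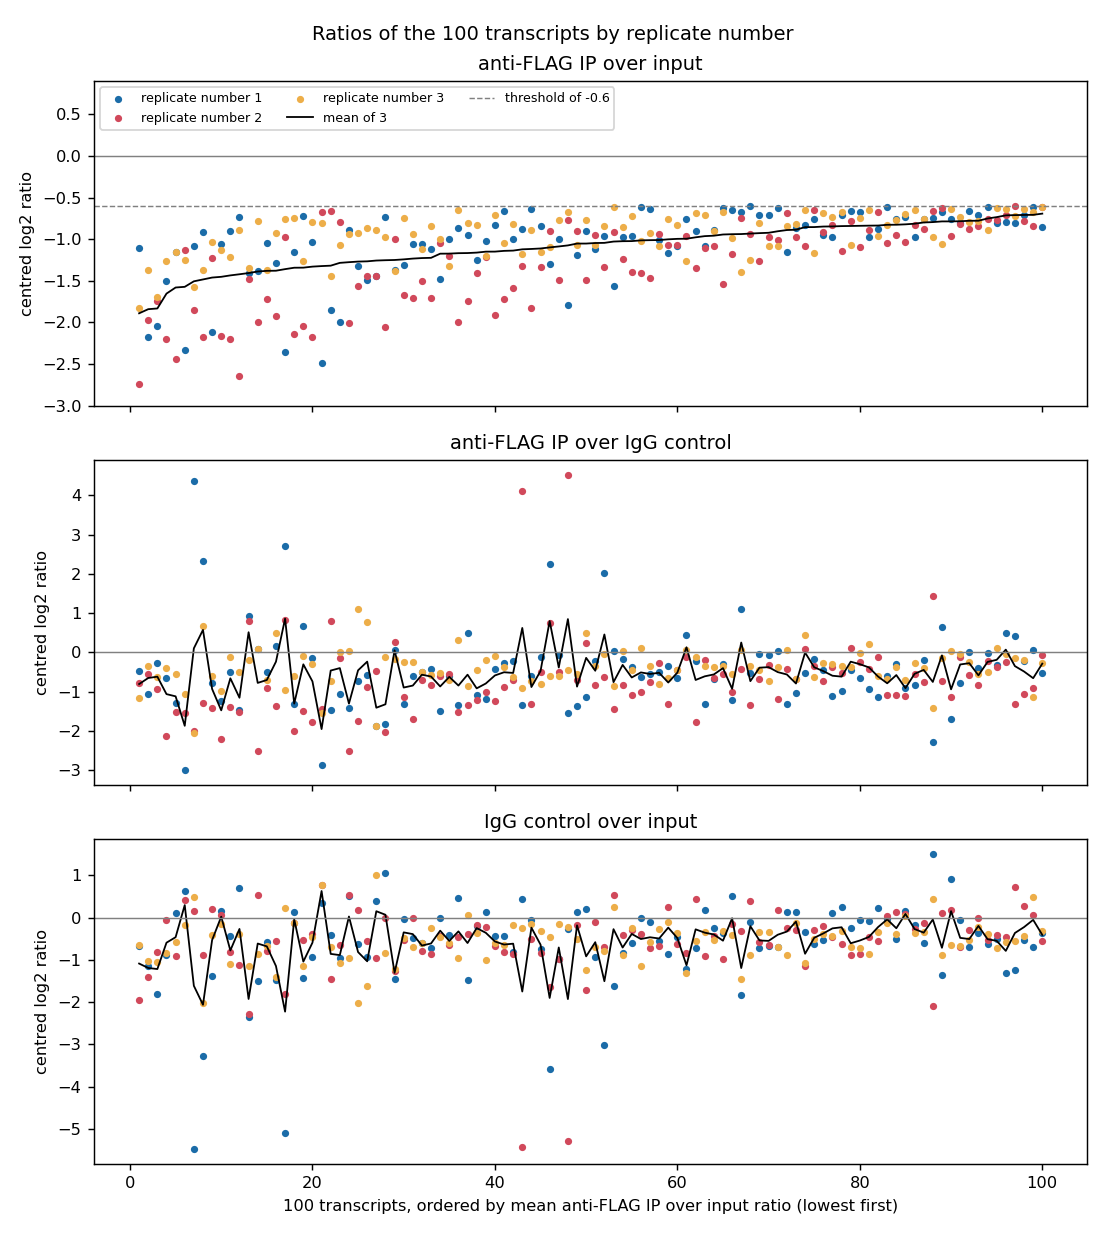
Centred log2 ratios of the 100 transcripts in each replicate number (points, 1 colour per number) with their mean (line), for anti-FLAG IP over input, anti-FLAG IP over IgG control and IgG control over input. By the rule, all anti-FLAG IP over input points are at or under -0.6 (dashed). For the other ratios most means lie under 0, with medians of -0.56 and -0.50, beside points of up to 4.53 and down to -5.47 from IgG control libraries with 0 counts.

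The IgG control shows how the same transcripts behaved without the tag antibody. Over the 100 transcripts the IgG control over input ratio had a median of -0.50, and 92 had a mean below 0. Over all 5562 genes the median was -0.01 and 51.5% were below 0. The medians in numbers 1, 2 and 3 were -0.49, -0.47 and -0.52. This ratio shares its input libraries with the rule, which favours genes whose input counts came out high. No transcript was called lower in IgG control than in input by edgeR, where 0% of 7594 genes were called lower, while 36 were lower at an unadjusted p below 0.05, as were 3.61% of all genes. Blocking on replicate number gave 3 calls, among 0.105% of all genes, and DESeq2 gave 4, among 0.132%. All 3 IgG control libraries lay below all 3 input libraries for 43 transcripts, and for 9.28% of all genes.

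The anti-FLAG IP over IgG control ratio compares 2 recovered fractions and shares the anti-FLAG IP libraries with the rule. Its median over the 100 transcripts was -0.56, with 88 means below 0, against 0.01 and 48.7% over all genes. The medians were -0.51, -0.77 and -0.37 in numbers 1, 2 and 3. edgeR called 0 of the 100 lower in anti-FLAG IP than in IgG control, among 0.0135% of 7408 genes, with 22 lower at an unadjusted p below 0.05 (2.39% of all genes). The block gave 1 call, among 0.121% of all genes, and DESeq2 6, among 0.486%. All 3 anti-FLAG IP libraries lay below all 3 IgG control libraries for 28 transcripts, where 5.99% of all genes did so. The anti-FLAG IP over IgG control and the IgG control over input ratios were thus of like size at the median, and both varied widely between transcripts.

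To read the ratios in libraries that had no part in the choice, the rule was applied to 2 replicate numbers and the chosen genes were read in the libraries of the remaining number. Chosen on numbers 2 and 3, 188 genes had a median anti-FLAG IP over input ratio of -0.63 in number 1. Of these, 100 (53.2%) were at or below -0.6, against 12.1% of all genes. Chosen on numbers 1 and 3, 162 genes had a median of -0.83 in number 2, with 101 (62.3%) at or below -0.6, against 17.4%. Chosen on numbers 1 and 2, 304 genes had a median of -0.33 in number 3, with 97 (31.9%) at or below -0.6, against 9.2%. The medians of the chosen genes were below 0 in each number left out and nearest 0 in number 3, while 24, 20 and 67 of the chosen genes lay above 0 in numbers 1, 2 and 3.

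The IgG control libraries of the number left out were read in the same way. At or below -0.6 in IgG control over input were 72 of the 188 genes (38.3%) in number 1, against 16.4% of all genes. They numbered 48 of 162 (29.6%) in number 2, against 10.3%, and 62 of 304 (20.4%) in number 3, against 7.78%. The medians of the chosen genes were -0.42, -0.25 and -0.17. Above 0 were 56, 56 and 105 of the chosen genes, so the lower IgG control ratio held for the medians and not for each gene. For anti-FLAG IP over IgG control the counts were 59 (31.4%) in number 1, against 19.1% of all genes, 73 (45.1%) in number 2, against 15.8%, and 46 (15.1%) in number 3, against 5.93%. The medians were -0.30, -0.55 and -0.15. Each fraction of a number enters 2 of its 3 ratios, so the 3 readings of a number are not independent of each other.

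**Figure D2:**
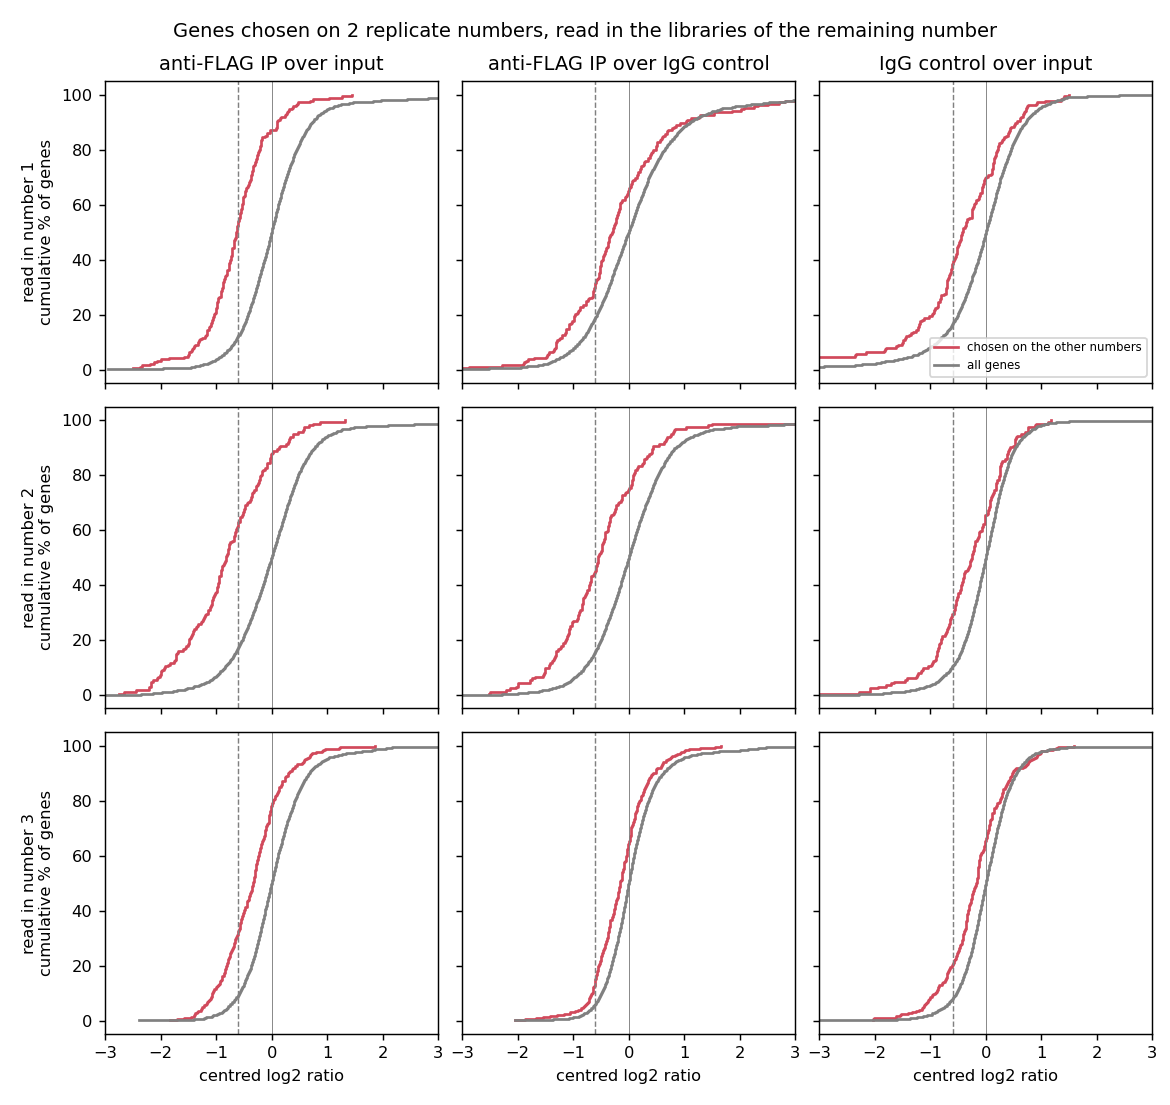
Cumulative percentage of genes (vertical axis) by centred log2 ratio (horizontal axis), for genes chosen on 2 replicate numbers (red) and all genes (grey), read in the libraries of the remaining number (rows) for 3 ratios (columns). The red curves lie left of the grey ones at the threshold of -0.6 (dashed) in all 9 panels, from 15.1% against 5.93% up to 62.3% against 17.4%.

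Of the 100 transcripts, 63 have a gene symbol other than a CG number, 35 have only a CG number and 2 have no symbol. To describe what they encode, 54 were placed in 5 groups by what their products are known to do. The groups were formed after the values were seen, and their counts test nothing. The groups' median IgG control over input ratios ran from -0.60 to -0.39 and their median anti-FLAG IP over IgG control ratios from -0.76 to -0.48. In the whole set 92 and 88 of the 100 means were below 0 in these ratios. Group medians below 0 therefore say nothing about what the genes encode.

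The first group holds 12 genes of chromatin, transcription and genome maintenance, with mean anti-FLAG IP over input ratios between -1.46 and -0.71 and a median of -1.10. Etl1 (chromosome 2L, 9908830 to 9912608, minus strand) encodes a SNF2-type chromatin remodelling ATPase. It had 68.3, 37 and 54.3 normalised counts in anti-FLAG IP, 92.8, 71.4 and 87.5 with control IgG and 144, 127 and 143 in input. The 3 fractions of Etl1 did not overlap and stood in the order of the group as a whole. The edgeR log2 fold change of Etl1 in anti-FLAG IP over IgG control was -0.65 ± 0.30 (SE), with an adjusted p of 0.654. Utx, a demethylase of histone H3, had 55, 38.1 and 65.9 in anti-FLAG IP, 54.8, 54.8 and 99.5 with control IgG and 112, 111 and 114 in input, with anti-FLAG IP and IgG control overlapping. Bap55, an actin-related subunit of the Brahma remodelling complex, had 49.6, 30.2 and 40.0 in anti-FLAG IP, 46.2, 70.4 and 51.4 with control IgG and 78.6, 63.3 and 85.8 in input. Here too the recovered fractions overlapped, and both IgG control and anti-FLAG IP had a lower mean than input. Chrac-16, a histone-fold subunit of the CHRAC remodelling complex, had 3.97, 5.9 and 8.74 in anti-FLAG IP, 7.24, 17.9 and 13.7 with control IgG and 20.4, 15.9 and 18.8 in input. Its IgG control libraries overlapped with both other fractions. The DNA helicase gene Blm, the dosage compensation gene msl-1 and the nucleotide excision repair gene Xpc had mean ratios of -1.43 ± 0.68, -1.15 ± 0.66 and -0.92 ± 0.19 (SD, n = 3). Blm and msl-1 were lowest in number 2, with ratios of -2.19 and -1.91, whereas Xpc was lowest in number 3.

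The second group holds 8 genes of RNA processing, RNA decay and translation, with a median ratio of -0.95. wisp encodes the cytoplasmic poly(A) polymerase that lengthens maternal poly(A) tails late in oogenesis. It lies on the X chromosome (11893943 to 11899920, plus strand) and had the highest mean input CPM of the 100 transcripts, 1051, a count that also grows with transcript length. Its normalised counts were 540.3, 503 and 356 in anti-FLAG IP, 575, 642 and 548 with control IgG and 925, 804 and 804 in input. All 3 fractions of wisp stood apart, although the highest anti-FLAG IP library came close to the lowest IgG control library. For wisp, anti-FLAG IP over IgG control gave an edgeR log2 fold change of -0.33 ± 0.21 (SE) and an adjusted p of 0.863. Sf3b3, a subunit of the SF3b splicing complex, had 23.2, 14.7 and 34.8 in anti-FLAG IP, 11.7, 8.49 and 39.6 with control IgG and 63.9, 43.8 and 89.8 in input. Its IgG control over input ratios of -2.35, -2.28 and -1.14 were lower in numbers 1 and 2 than its anti-FLAG IP over input ratios of -1.40, -1.47 and -1.34. Relative to the median gene, Sf3b3 was thus no lower with the tag antibody than with IgG in those numbers. The fit of IgG control over input for Sf3b3 gave an edgeR log2 fold change of -1.73 ± 0.54 (SE) and an adjusted p of 0.739. DENR, a factor for translation reinitiation, and Pop1, a subunit of RNase P and RNase MRP, had mean ratios of -1.12 ± 0.62 and -1.05 ± 0.09 (SD, n = 3).

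The third group holds 15 genes of the secretory pathway, membranes and lysosome, with a median ratio of -0.94. alpha-Man-IIb, a Golgi mannosidase of N-glycan processing, had the lowest ratio of the named groups. It had 7.93, 6.7 and 11.9 in anti-FLAG IP, 9.66, 14.2 and 18.9 with control IgG and 36.1, 25.7 and 40.4 in input, and the lowest input library was above every other library. The edgeR log2 fold change of alpha-Man-IIb in anti-FLAG IP over IgG control was -0.68 ± 0.70 (SE), with an adjusted p of 0.962. Catsup, a zinc transporter of the ZIP family, had 19.5, 9.57 and 34.9 in anti-FLAG IP, 29.9, 45.9 and 46.1 with control IgG and 57.8, 48.8 and 84.9 in input. In number 2 its IgG control was close to input and its anti-FLAG IP was far lower, whereas in numbers 1 and 3 the IgG control lay between them. ERp60, a protein disulfide isomerase of the endoplasmic reticulum, had 320.1, 335 and 522 in anti-FLAG IP, 416, 554 and 623 with control IgG and 627, 646 and 842 in input. GILT1, a thiol reductase of the lysosome, had 139, 153 and 126 in anti-FLAG IP, 341, 251 and 184 with control IgG and 324, 292 and 266 in input. For GILT1 the IgG control libraries overlapped with input and all anti-FLAG IP libraries lay below both. The edgeR log2 fold change of GILT1 in anti-FLAG IP over IgG control was -0.89 ± 0.25 (SE), with an adjusted p of 0.142. EMC4, a subunit of the endoplasmic reticulum membrane complex, had IgG control over input ratios of 0.91, 0.19 and -0.65 in numbers 1, 2 and 3. Its IgG control libraries thus disagreed in direction with each other.

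The fourth group holds 8 genes of small-molecule metabolism, with a median ratio of -1.25. Cyp6a19, a cytochrome P450, had 198, 84.4 and 259 in anti-FLAG IP, 209, 292 and 317 with control IgG and 413, 391 and 449 in input. Its number 2 anti-FLAG IP library was the lowest of all 9. The thiolase genes Acat2 and yip2 were close to input in IgG control, with mean IgG control over input ratios of -0.04 ± 0.15 and -0.10 ± 0.21 (SD, n = 3). Their anti-FLAG IP over input ratios were -1.15, -2.13 and -0.74 for Acat2 and -0.86, -0.98 and -0.82 for yip2 in numbers 1 to 3. yip2 varied little between numbers and Acat2 by more than 1 log2 unit. Pgls, 6-phosphogluconolactonase of the pentose phosphate pathway, had 2.1, 7.66 and 12.3 in anti-FLAG IP, 0, 4.39 and 24.7 with control IgG and 14.4, 16.7 and 21.5 in input. IgG control number 1 held 0 counts of Pgls, so that its mean IgG control over input ratio of -2.22, the lowest of the 100, depends on the 0.5 CPM added.

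The fifth group holds 11 genes of the cytoskeleton, signalling and protein turnover, with a median ratio of -1.16. tsr, the actin-severing protein cofilin, had 237, 247 and 376 in anti-FLAG IP, 477, 578 and 511 with control IgG and 572, 674 and 669 in input. The highest anti-FLAG IP library of tsr was below the lowest IgG control library, and IgG control and input overlapped. The edgeR log2 fold change of tsr in anti-FLAG IP over IgG control was -0.86 ± 0.22 (SE), with an adjusted p of 0.0873. raptor, the subunit of TORC1 that recruits its substrates, had 21.7, 19.8 and 21.9 in anti-FLAG IP, 20.3, 16.8 and 24.5 with control IgG and 58.3, 41.9 and 58.5 in input. Relative to the median gene, raptor was about equally low in both recovered fractions, with anti-FLAG IP over IgG control ratios of 0.05, 0.27 and -0.16. The fit of IgG control over input for raptor gave an edgeR log2 fold change of -1.36 ± 0.31 (SE) and an adjusted p of 0.573. CCT5, a subunit of the TRiC chaperonin, had 188, 134 and 265 in anti-FLAG IP, 203, 238 and 256 with control IgG and 377, 325 and 482 in input. The recovered fractions of CCT5 overlapped and both lay below all input libraries. Dok, an adaptor protein of tyrosine kinase signalling, had 70.6, 51.2 and 61.2 in anti-FLAG IP, 128, 112 and 99.9 with control IgG and 120.2, 109 and 100.1 in input, so IgG control and input overlapped and anti-FLAG IP lay below both.

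**Figure D3:**
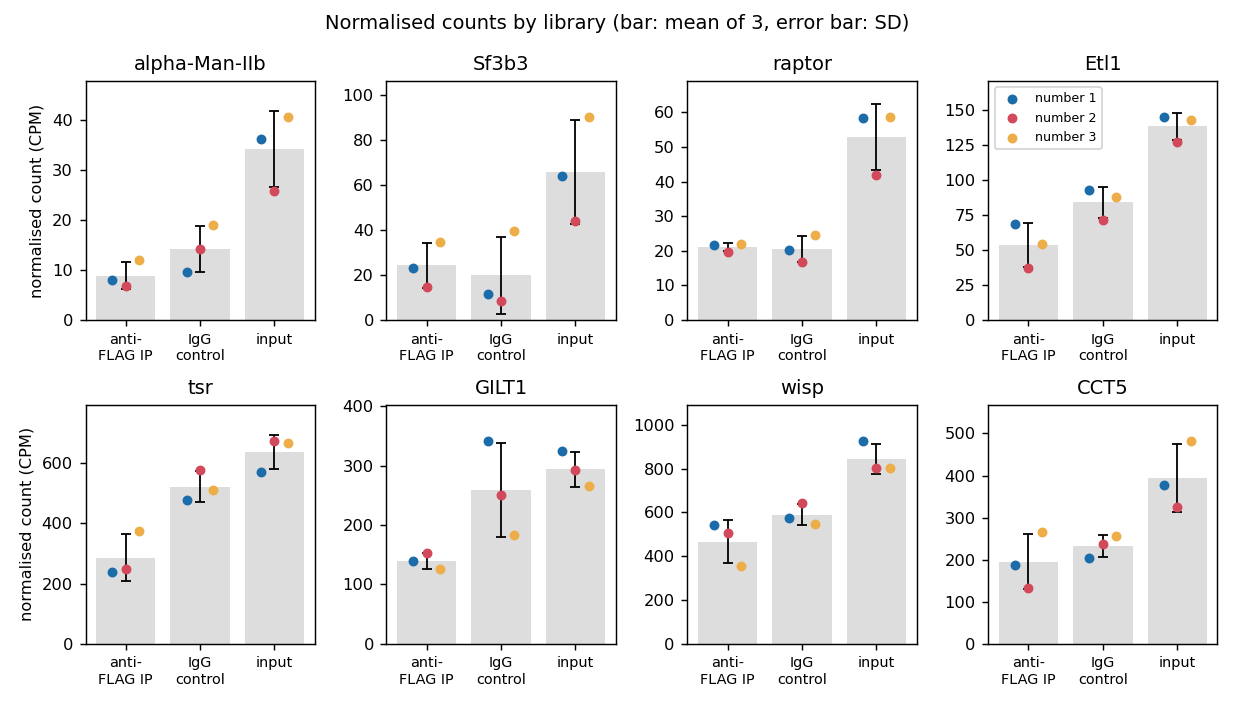
Normalised counts (CPM after TMM scaling) of 8 transcripts in the 3 anti-FLAG IP, 3 IgG control and 3 input libraries (points, coloured by replicate number), with the mean (bar) and SD (error bar). In alpha-Man-IIb, Sf3b3, raptor and CCT5 all libraries of both recovered fractions lie below all input libraries, and in tsr and GILT1 anti-FLAG IP lies below all libraries of both other fractions while IgG control and input overlap.

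Several transcripts outside these groups stood at the ends of the ranges. CG5151 had 7.47, 1.76 and 4.23 normalised counts in anti-FLAG IP, 10.4, 4.2 and 10.4 with control IgG and 17.6, 17.7 and 16.9 in input. CG14647 had 3.62, 4.31 and 12.5 in anti-FLAG IP, 8.3, 7.26 and 16 with control IgG and 19.7, 20.6 and 33.6 in input. In both, the input libraries lay above all others, and the recovered fractions overlapped. CG8321 had the highest mean IgG control over input ratio of the 100, 0.63 ± 0.24 (SD, n = 3). It had 5.13, 11.8 and 11.2 in anti-FLAG IP, 40.9, 34 and 33.8 with control IgG and 33.2, 20.3 and 20.2 in input. Every IgG control library of CG8321 was above every input library. Anti-FLAG IP over IgG control for CG8321 gave an edgeR log2 fold change of -1.95 ± 0.46 (SE) and an adjusted p of 0.0512. CG44242 and CG32638 were on average likewise not below input in IgG control, with mean ratios of 0.30 ± 0.42 and 0.02 ± 0.16 (SD, n = 3), while their anti-FLAG IP over IgG control ratios were -1.87 ± 1.01 and -1.48 ± 0.65. The immunoglobulin family gene dpr6 and CG5532 had IgG control over input ratios on both sides of 0, 0.40, -0.95 and 1.00 for dpr6 and 1.06, -0.02 and -0.84 for CG5532 in numbers 1 to 3. For dpr6, number 3 held far fewer counts than the other numbers in input, with 56.8, 50.6 and 9.78 normalised counts. CG31650 had 22.5, 10.4 and 23.8 in anti-FLAG IP, 53.6, 32.2 and 35 with control IgG and 52, 62 and 54.1 in input, with anti-FLAG IP below both other fractions. At the other end, JMJD7, a hydroxylase of the Jumonji family, had 11.7, 5.27 and 16.8 in anti-FLAG IP, 1.94, 14.6 and 10.4 with control IgG and 23.3, 28 and 45 in input. bdg, a gene of the neurotransmitter transporter family, had 15.9, 14.8 and 9.55 in anti-FLAG IP, 2.89, 9.01 and 15 with control IgG and 41, 29.7 and 21.4 in input. In JMJD7 and bdg the number 1 library of IgG control was the lowest of all 9. yellow-g, a Yellow family gene of the eggshell, had 194, 202 and 279 in anti-FLAG IP, 328, 296 and 334 with control IgG and 386, 366 and 439.9 in input, in 3 separate ranges.

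Of the 100, 4 transcripts had no count in 1 IgG control library: CG8043 and Pgls in number 1, and Josd, a Josephin-type deubiquitinase, and Saf6, a TAF6-like subunit of the SAGA complex, in number 2. CG8043 had 8.17, 3.83 and 3.96 normalised counts in anti-FLAG IP, 0, 18.6 and 18.4 with control IgG and 18.8, 17.1 and 13.3 in input. Josd had 5.72, 8.62 and 9.37 in anti-FLAG IP, 17.6, 0 and 13 with control IgG and 22.2, 16.1 and 15.6 in input. Saf6 had 7.47, 6.22 and 6.93 in anti-FLAG IP, 19.3, 0 and 13.6 with control IgG and 14.9, 17.8 and 16.7 in input. In all 3 the IgG control libraries that held counts were above every anti-FLAG IP library. The limit of 3 counts is 0.213 CPM in IgG control number 1 and 0.171 in number 2. No anti-FLAG IP or input library held 0 counts for any of the 100, and the smallest count was 11 in anti-FLAG IP and 143 in input.

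Other subunits of the same complexes give a comparison. In 6 complexes chosen after the set was known, each held 1 of the 100 transcripts. Of 8 listed subunits of the TRiC chaperonin 7 were measured. The 6 measured other than CCT5 had mean anti-FLAG IP over input ratios between 0.19 and 0.59, against -1.02 for CCT5. All 6 were above the median gene in each replicate number. The SF3b complex had 5 other measured subunits between -0.90, for Phf5a, and 0.53, for Sf3b1, against -1.41 for Sf3b3. Phf5a missed the threshold in number 3 alone, at -0.09. Lst8, the other measured TORC1 subunit, was at 0.20, against -1.25 for raptor. The 7 other measured exocyst subunits lay between -0.43 and 0.56, against -0.84 for Exo84. Of 10 listed RNA exosome subunits 8 were measured, and the 7 other than Csl4 lay between -0.68 and 0.79, against -0.71 for Csl4. In the endoplasmic reticulum membrane complex 8 others lay between -0.53 and 0.43, against -0.79 for EMC4.

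Among lists of pathways and cell types, 3 held members. Over all 5562 genes, 1.80% are in the set, and edgeR called 0.383% of the genes tested lower in anti-FLAG IP than in input. They were 3 of 42 measured chromatin remodelling genes, Bap55, Etl1 and Utx, where edgeR called 2 lower and 0 higher in anti-FLAG IP than in input. They also were 1 of 36 spliceosome genes, Sf3b3, with 1 called lower and 0 higher, and 1 of 14 genes of Golgi glycan processing, alpha-Man-IIb, with 1 called lower and 0 higher. The medians of these lists were 0.02, 0.03 and -0.14, near the median gene. No member fell among 84 ribosomal protein genes, whose median was 2.94 and of which 77 were called higher. The 35 translation initiation factor genes held none either, with a median of 0.61 and 12 called higher. Over all genes tested, edgeR called 155 of 7575 higher in anti-FLAG IP than in input. The 27 nucleoporin, 22 microtubule motor, 24 endoplasmic reticulum translocation and COPII, 21 autophagy and lysosome and 21 piRNA pathway genes measured also held none.

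By the BDGP6.54 annotation, 98 of the 100 transcripts were matched, all protein coding, and 5414 of the 5562 genes were. Their median exonic length was 2142 bases, against 2345 for all genes, and the median coding length was 1448 against 1488 bases. The median 3′ UTR was 254 bases, against 342, and the median 5′ UTR 143 bases, against 181. Coding and UTR lengths are those of the longest annotated transcript of each gene. With all genes ranked and divided into 4 equal bins of 3′ UTR length, the transcripts made up 1.78%, 2.60%, 1.71% and 1.19% of the genes, shortest bin first. By bins of exonic length they made up 2.22%, 1.85%, 1.92% and 1.26%. Their median input level was 65.5 CPM, against 83.1, and by bins of input CPM they made up 2.51%, 1.85%, 1.55% and 1.33%, lowest bin first. The 3 measures were not adjusted for each other.

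A gene annotated on the opposite strand overlapped 57 of the 98 (58.2%), against 41.7% of all genes, and 37 (37.8%) overlapped no gene, against 53.4%. Overlap on the same strand was found for 8 (8.16%), against 8.9%. The library kit keeps the strand, but the strand setting of the counting is not stated in the sources used here. Where it was not used, reads from exonic bases that a gene shares with its antisense neighbour cannot be told apart. Overlap was counted over whole gene spans, introns included, so an overlapped transcript need not share exonic bases. The 57 overlapped transcripts had median ratios of -1.11 for anti-FLAG IP over input, -0.55 for anti-FLAG IP over IgG control and -0.55 for IgG control over input. The 41 without a gene on the other strand had -1.01, -0.56 and -0.46. The 98 lay on all major chromosome arms, with 17 on 2L, 22 on 2R, 15 on 3L, 25 on 3R, 1 on 4 and 18 on X. Another transcript of the set lay within 5000 bases of 6 (6.12%), against 3.80% of all genes. These were sicily, a mitochondrial complex I assembly factor, and wisp, 197 bases apart on X, Etl1 and yip2, 2644 bases apart on 2L, and CG8613 and the retrotransposon-derived gene Arc1, 2252 bases apart on 2R.

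**Figure D4:**
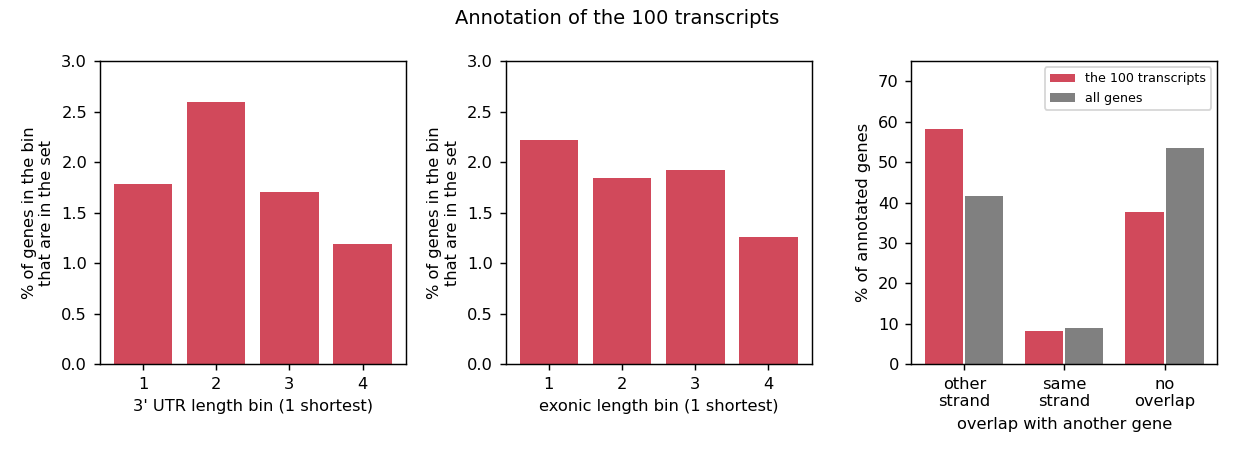
Percentage of the genes in each of 4 equal bins of 3′ UTR length and of exonic length that belong to the 100 transcripts (left and middle), and percentage of the 98 annotated transcripts (red) and of 5414 annotated genes (grey) that overlap another gene (right). The bins of longest 3′ UTR and of longest exonic length hold the smallest shares, 1.19% and 1.26%. Overlap with a gene on the other strand is found for 58.2% against 41.7%.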

How the data were processed

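RNA of 9 ovary libraries was measured by sequencing after poly(A) selection, with a strand-keeping kit and 13 min of fragmentation. The authors deposited raw counts per FlyBase gene, 1 list per library, and the submitters' processing notes name HISAT2 2.1.0, featureCounts 1.4.6 and the dm6 build. The strand setting and annotation release are not given in the sources used here. Symbols matched 16647 of 17024 features, and positions and lengths came from BDGP6.54 (Ensembl 115).

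CPM and centred ratios were computed in Python 3.11.15. Each pair of fractions was fitted alone in edgeR 4.0.16 (R 4.3.3) with TMM scaling, filterByExpr and the robust quasi-likelihood test. A gene was called at a Benjamini-Hochberg adjusted p under 0.05, and the standard error came from the F statistic. DESeq2 1.42.0 was an alternative. Scripts were tested on simulated data.

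Groups and replicate numbers came from the titles. Same-numbered libraries deviated together over 6845 genes, with correlations of deviations between 0.155 and 0.445 in each number and pair of fractions. Between different numbers they ran from -0.355 to 0.123, so the numbers pair the libraries. The standard errors and adjusted p-values of single genes came from fits that did not use this pairing. No 2 libraries were copies of each other, since counts of replicates differed far beyond sampling noise.

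The transcripts, lists and tests were chosen with earlier results of these data known. Genes named by rule were larp, the 10 transcripts with the lowest mean anti-FLAG IP over input ratio, the 6 with the highest input CPM, the 6 highest and 6 lowest in IgG control over input, those nearest the threshold, those in a gene list and the extremes of a single ratio. Every other gene was named after its values were seen. Sequence content was not analysed here. Counting limits cover counting error only.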

Additional observations from a re-analysis of the deposited data

How the results depend on the processing

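The number of transcripts that the rule chose was 60 at a minimum input of 50 CPM, 158 at a ratio threshold of -0.5 and 39 at -0.8. It was 162 to 304 when 1 replicate number was left out, where the rule asks for 2 low ratios in place of 3 and is thus looser. Those sets held 96 to 99 of the 100. The number was 1982 with total-count scaling without centring, where the median gene itself is far below 0. TMM scaling in place of centring gave 112, which included all 100.

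Of the 100, the count called lower in anti-FLAG IP than in input was 76 with the replicate block (2.11% of all genes tested), 59 with DESeq2 (1.45%), 98 with total-count scaling (46.4%), 58 with no filter on low counts (1.05%) and 0 to 40 with 1 replicate number left out (0% to 1.76%). In IgG control against input it was 3 with the block (0.105%) and 4 with DESeq2 (0.132%), and 0 whichever number was left out. In anti-FLAG IP against IgG control it was 1 with the replicate block (0.121%), 6 with DESeq2 (0.486%), 1 with DESeq2 size factors in edgeR (0.027%), 58 with total-count scaling (27.2%), 3 with no filter (0.218%), 5 with all 9 libraries in 1 fit (0.101%) and 0 to 1 with a number left out (0% to 0.134%). The cause was not tested.

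The rule holds every anti-FLAG IP over input ratio of the set at or below -0.6, so the sign of that median could hardly change. The medians of anti-FLAG IP over IgG control and of IgG control over input, which share libraries with the rule, also kept their sign. With total-count scaling without centring the medians were -1.96 for anti-FLAG IP over input, -1.40 for anti-FLAG IP over IgG control and -0.58 for IgG control over input, and the last was -0.54 with TMM scaling. With 1 number left out they ran from -1.11 to -0.91, from -0.63 to -0.43 and from -0.50 to -0.46. With 3 libraries a fraction and the set chosen on these libraries, the genes read in a number left out are the values least tied to the choice.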
